A study of Mus musculus with 28 samples.

Results

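The genes described here are the 6 that make, break down and sense histamine in the mouse: *Hdc*, *Hnmt*, *Maob*, *Hrh1*, *Hrh2* and *Hrh3*. They were chosen by name, out of 29878 genes counted in each library, and all 6 were among the 14979 genes that passed the filter on low counts. RNA was sequenced from the dorsal striatum, ventral striatum, motor cortex and hypothalamus of mice aged 2 to 3 months that were wild-type (WT), *Hdc* heterozygous or *Hdc* knockout (KO), giving 28 libraries. The mutation is constitutive, carried by every cell, and was backcrossed onto C57Bl/6. No drug or other agent is named for any group, and the groups are not stated to differ in anything but genotype and region. Of the WT libraries, 2 came from dorsal striatum, 3 from ventral striatum, 3 from hypothalamus and 1 from motor cortex, where WT values so have no replicate check. Heterozygous libraries numbered 2 in the motor cortex and 3 in each other region, and every region had 2 KO libraries.

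Histamine is made from histidine by histidine decarboxylase, the product of *Hdc*. In the brain its neurons lie in the tuberomammillary nucleus of the posterior hypothalamus and send axons to nearly the whole forebrain, where histamine acts on wakefulness, appetite and the output of other transmitters. After release it is methylated by histamine N-methyltransferase (*Hnmt*), and the methylated product is oxidised by monoamine oxidase B (*Maob*). H1 and H2 receptors (*Hrh1*, *Hrh2*) mostly excite the cells that carry them, and H3 receptors (*Hrh3*) sit largely on axon terminals, where they limit the release of histamine and of other transmitters.

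Counts on genes were between 3536802 and 5150280 per library. Levels are given as CPM, a gene's counts relative to a fixed library total after scaling of the libraries by the TMM method, and a gene at 10 CPM rests on about 40 counts. The dissections were checked with region markers. The summed level of 5 striatal genes was 2520 to 3910 CPM in the dorsal striatum, 588 to 1280 CPM in the ventral striatum and at most 68.5 CPM elsewhere. That of 6 hypothalamic peptide genes was 146 to 236 CPM in the hypothalamus and at most 3.35 CPM elsewhere. That of 4 cortical genes was 1600 to 1880 CPM in the motor cortex and at most 318 CPM elsewhere. Some libraries stood apart. A KO dorsal striatum library, replicate 8, had 2830 CPM of choroid plexus genes, against 3.6 to 65.9 CPM in the other dorsal striatum libraries. KO replicate 7 and WT replicate 2 of that region had 314 and 97.9 CPM of cortical genes, against 7.11 to 13.6 CPM in the rest, and the hypothalamic KO replicate 8 had 318 CPM, against 27.7 to 58.3 CPM. In the ventral striatum, KO replicate 8 and WT replicate 3 had 588 and 778 CPM of striatal genes, against 1000 to 1280 CPM in the rest. In tissue samples, fewer cells of a type and less RNA per cell cannot be told apart. Nothing states that the libraries of a group came from separate mice, so p-values measure the spread between libraries, which may be technical. Libraries of different regions may also come from the same mouse, and the model treats them as separate.

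All positions are on GRCm38. The protein-coding gene *Hdc* (ENSMUSG00000027360) spans bases 126593667 to 126619299 of chromosome 2, minus strand. Because the results turn on the counts of *Hdc*, the 250 bases before its RefSeq start site are printed. They span chr2:126618679-126618928 (GRCm38.p6, minus strand), read 5′ to 3′. This window lies inside the gene span given above, which comes from GENCODE and starts further upstream than the RefSeq site. Whether *Hdc* counts in KO or heterozygous libraries came from transcripts that start at the RefSeq site was not tested. Capitals mark the letters GGGCGG, searched on both strands:
*Hdc*: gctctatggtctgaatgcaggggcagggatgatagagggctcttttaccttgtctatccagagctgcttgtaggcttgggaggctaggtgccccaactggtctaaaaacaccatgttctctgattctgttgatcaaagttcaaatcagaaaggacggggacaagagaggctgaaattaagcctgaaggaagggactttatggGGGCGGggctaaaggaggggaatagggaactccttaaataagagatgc
The window held 1 match, which ended 43 bases before the start site, and 32.7% of the 32851 RefSeq windows of this length held at least 1. Its GC content was 48.8%, against a median of 52.4% over all windows. RefSeq windows were found for 5 of the 6 genes. GC content was 38.8% for *Hnmt*, 49.6% to 78.4% for the start sites of *Hrh1*, 59.6% and 60.0% for those of *Hrh2*, and 80.8% for *Hrh3*.

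*Hdc* was the gene the mutation targets, and its counts checked the labels. Outside the hypothalamus, the libraries labelled KO held more *Hdc* counts than those labelled WT, not fewer, with heterozygous libraries in between. In the hypothalamus, KO libraries lay slightly below WT libraries. KO, heterozygous and WT below are therefore the libraries so labelled. The deposited counts are a single number per gene, which does not show which exons were read, so a count on *Hdc* in a KO library does not show an intact transcript.

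In the dorsal striatum, *Hdc* was at 0.899 and 0 CPM in the WT libraries (3 and 0 counts), at 6.73, 4.17 and 5.72 CPM in the heterozygous libraries, and at 9.21 and 8.14 CPM in the KO libraries. The 3 genotypes did not overlap. How many other genes had such an order of libraries was not counted in any region. A count of 0 in WT replicate 2 allows up to 0.68 CPM. The pooled KO level was 22.5-fold that of WT, with an exact 95% counting interval of 7.39 to 112, and the heterozygous level was 14.5-fold, with an interval of 4.76 to 71.9. Intervals and limits of this kind cover counting error only. *Hdc* was called in both comparisons (edgeR's likelihood ratio test, adjusted p = 1.52e-11 for KO and 4.58e-07 for heterozygous against WT). WT replicate 1 held all 3 WT counts. Without it the WT group was at 0, and both calls remained (adjusted p = 3.28e-09 for KO). Without WT replicate 2 the log2 changes were 3.23 and 2.60 in place of 4.39 and 3.75 (adjusted p = 0.00165 and 0.0267). With limma in place of edgeR the heterozygous call was lost (adjusted p = 0.223). It was also lost with limma and the number in the library name as a random block.

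Some oligodendrocyte genes moved with genotype in the dorsal striatum too. *Mobp*, a myelin protein gene, was higher in KO than in WT by a log2 change of 0.76 (SE 0.18, edgeR's test, adjusted p = 0.0187) and *Cnp*, a myelin enzyme gene, by 0.72 (SE 0.18, adjusted p = 0.0337). *Mog* and *Mag*, which encode myelin glycoproteins, were at 0.88 (SE 0.25, adjusted p = 0.0791) and 0.51 (SE 0.22, adjusted p = 0.508) and did not pass. None of these genes was called for KO against WT in the ventral striatum, motor cortex or hypothalamus. The dorsal striatum KO group included replicate 8, the library with choroid plexus RNA. The part of oligodendrocytes in the level of *Hdc* was not tested.

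In the ventral striatum, *Hdc* was at 0.288, 1.62 and 0 CPM in WT libraries (1, 6 and 0 counts), where 0 counts allow up to 0.77 CPM. The heterozygous libraries were at 5.31, 5.24 and 5.51 CPM and the KO libraries at 11.6 and 12.9 CPM. Again no genotype overlapped another, and the heterozygous libraries were close together. The log2 fold change was 4.21 (SE 0.58) for KO against WT (edgeR's test, adjusted p = 1.3e-20) and 3.03 (SE 0.59) for heterozygous against WT (adjusted p = 1.92e-07). WT replicate 2 held 6 of the 7 WT counts, and without it, with the WT group at 1 count, the changes were 6.22 and 5.04 on the log2 scale. The heterozygous call was lost with limma (adjusted p = 0.117), and also with limma and the number in the library name as a random block.

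In the motor cortex, the single WT library had no *Hdc* count, which allows up to 0.721 CPM. The heterozygous libraries were at 4.83 and 5.4 CPM, and the KO libraries were higher, at 10.1 and 7.84 CPM. Against the limit of 3 counts, KO was at least 12.6-fold higher than WT and heterozygous at least 7.08-fold higher. Both were called (edgeR's test, adjusted p = 9.07e-09 and 0.000177), but the adjusted p of KO against WT was 0.632 with the Wald test of DESeq2 and 0.732 with limma. That of heterozygous against WT was 0.169 with edgeR's quasi-likelihood test and 1 with the other pair.

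The hypothalamus, the home of the histamine neurons, differed. *Hdc* was at 15.3, 19.1 and 16.8 CPM in WT, at 14.6, 21.8 and 15.2 CPM in heterozygous and at 11.7 and 14.2 CPM in KO libraries. Both KO libraries lay below every WT and heterozygous library, and the heterozygous libraries spanned the WT ones. The number of other genes with such an order was not counted. Means were 17.1 ± 1.92 (SD, n = 3), 17.2 ± 3.97 (SD, n = 3) and 12.9 ± 1.76 CPM (SD, n = 2). The log2 fold change of KO against WT was -0.40 (SE 0.21), which did not pass (edgeR's test, unadjusted p = 0.0575, adjusted p = 0.84), and that of heterozygous against WT was 0.01 (SE 0.18, adjusted p = 1). When a library was left out the KO change ran from -0.55, without KO replicate 8, the library with more cortical RNA, to -0.27, without KO replicate 7.

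**Figure D1:**
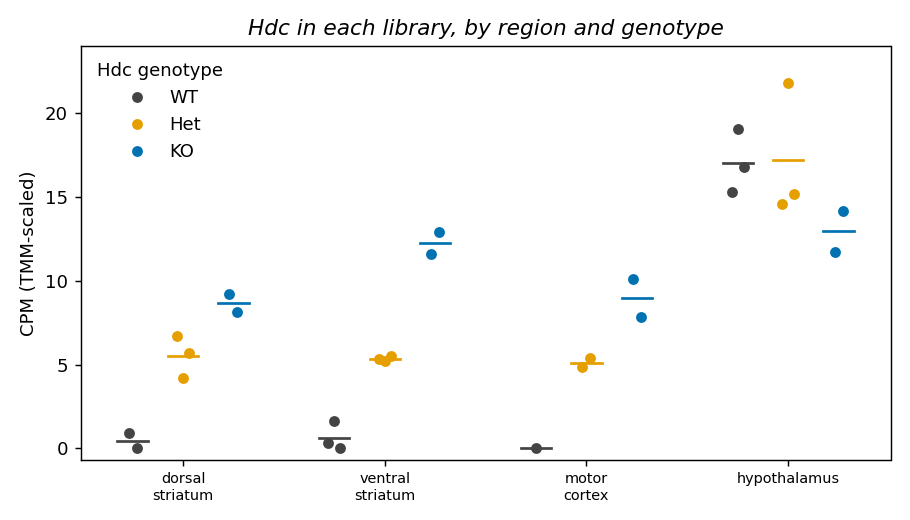
CPM of *Hdc* in each of the 28 libraries, by region and genotype; points are libraries and bars are group means. Outside the hypothalamus the WT points lie at 0 to 1.62 CPM, the heterozygous points at 4.17 to 6.73 CPM and the KO points at 7.84 to 12.9 CPM, while in the hypothalamus the KO points are the lowest.

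The change of *Hdc* thus depended on the region, and the difference was tested in the same model. The KO against WT change in the hypothalamus was lower than the mean of the other regions (edgeR's test, adjusted p = 3.16e-30), and *Hdc* was the only 1 of the 6 genes called, where 0.0935% of all genes were. No size is given, since the WT motor cortex was at 0. With the ventral striatum alone as the comparison, a contrast chosen after the values were seen, the difference was -4.62 on the log2 scale (SE 0.62, adjusted p = 4.18e-18) for KO, where 0.1% of all genes were called. It was -3.02 (SE 0.61, adjusted p = 1.93e-05) for heterozygous, where 0.00668% were.

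Seen from the regions, the lead of the hypothalamus was smaller in heterozygous than in WT libraries and smallest in KO libraries. In WT libraries the pooled hypothalamic level of *Hdc* was 44.3-fold that of the dorsal striatum (95% counting interval 15 to 216), 27.1-fold that of the ventral striatum (13 to 68.1) and at least 23.8-fold that of the motor cortex. In heterozygous libraries the ratios were 3.07, 3.22 and 3.37. In KO libraries they were 1.49, 1.06 and 1.43, and only the interval over the ventral striatum, 0.806 to 1.4, took in 1. The hypothalamus against the mean of the other regions gave a log2 change of 1.68 (SE 0.18) in heterozygous libraries (edgeR's test, adjusted p = 4.96e-21) and 0.39 (SE 0.21) in KO libraries (adjusted p = 0.156). The contrast passed for 4 of the 6 genes in heterozygous libraries, where 38.6% of all genes did, and for 3 of the 6 in KO libraries, where 27.2% did, *Hdc* being the gene that dropped out. These last 2 contrasts were also chosen after the values were seen.

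KO was set against heterozygous to ask whether the level followed the number of mutant alleles. Pooled ratios of KO over heterozygous were 1.55 in the dorsal striatum (95% counting interval 1.1 to 2.19), 2.28 in the ventral striatum (1.67 to 3.14) and 1.78 in the motor cortex (1.2 to 2.67). In the hypothalamus the ratio was 0.751 (0.601 to 0.935). KO lay above heterozygous in every library of the first 3 regions and below it in the hypothalamus. The test passed in the ventral striatum only, at 1.19 on the log2 scale (SE 0.27, edgeR's test, adjusted p = 0.0188), and the other adjusted p-values were 0.562, 0.906 and 0.903. That call was lost without heterozygous replicate 4 (adjusted p = 0.226), 5 (0.165) or 6 (0.106) or KO replicate 8 (0.345), and with edgeR's quasi-likelihood test (0.667), DESeq2 (0.306) and limma (1). Averaged over the 3 regions outside the hypothalamus, which was chosen after the values were seen, the change was 0.88 (SE 0.17, adjusted p = 0.000246, where 0.16% of all genes were called). That average counts libraries of different regions as separate, though they may share mice.

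The neighbours of *Hdc* on chromosome 2 were measured too. *Slc27a2*, a fatty acid transport gene 5424 bp away, and *Gabpb1*, a subunit of a transcription factor 8143 bp away, were called in no comparison of KO or heterozygous with WT. In the ventral striatum their KO against WT log2 changes were -0.04 (SE 0.27) and 0.21 (SE 0.23), beside 4.21 for *Hdc*.

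Genes of the cells that make histamine were read beside *Hdc*. The list of histaminergic neuron genes held 7, of which *Slc18a2* (the vesicular monoamine transporter), *Wif1* (a Wnt inhibitor), *Prph* (peripherin), *Hcrtr2* (an orexin receptor) and *Bsx* (a homeobox factor) were higher in the hypothalamus than in each other region. *Ada* (adenosine deaminase) and *Itm2a* (a membrane protein) passed against none. None of the 7 was called in 28 tests of KO against WT with edgeR's likelihood ratio test, where 1 had an unadjusted p under 0.05, nor with its quasi-likelihood test or DESeq2. Of all genes, the first of these tests called 0.0334% to 0.387% in a region. The summed level of the 7 was 66.8 to 89.3 CPM in WT, 78.2 to 106 CPM in heterozygous and 78 to 99.2 CPM in KO hypothalamus. It was 27.1 to 40 CPM in the other regions, where *Itm2a* alone averaged 21.4 to 23.2 CPM, and *Bsx*, *Prph* and *Wif1* averaged at most 0.311 CPM each. The genotypes overlapped in the sum in the hypothalamus and the striatum. Since *Slc18a2* loads other amines too, the sum is not specific to histaminergic cells in the hypothalamus. Mast cells, the other known source of histamine in the brain, were checked with 7 genes, none of which passed the filter. Their summed counts were between 0 and 6 per library.

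**Figure D2:**
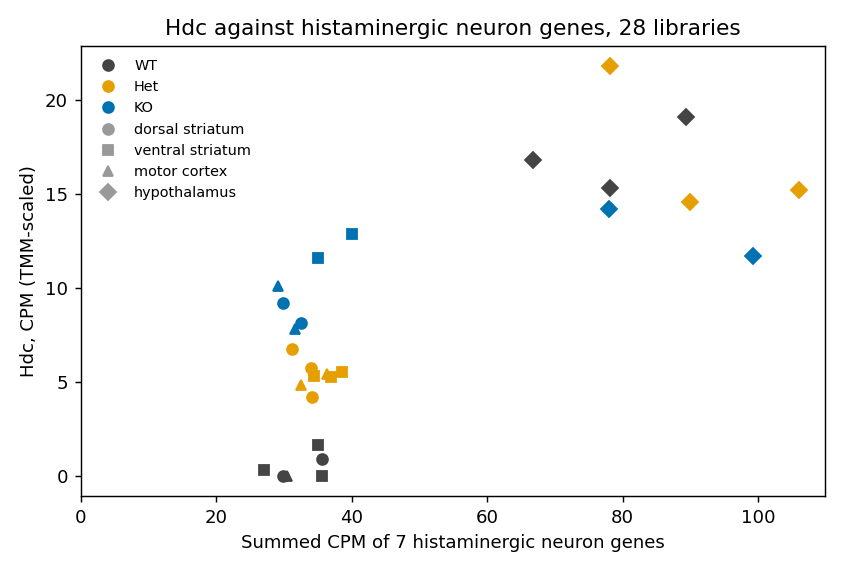
CPM of *Hdc* against the summed CPM of 7 histaminergic neuron genes in the 28 libraries; colours are genotypes and symbols are regions. Outside the hypothalamus the sum is at 27.1 to 40 CPM in every genotype and *Hdc* runs from 0 to 12.9 CPM. Most of the sum there is *Itm2a*, which did not pass as higher in the hypothalamus, so the sum does not measure histaminergic cells there. In the hypothalamus the sum also holds *Slc18a2*, which loads other amines too, so it is not specific to histaminergic cells there either.

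Across the 4 regions, 3 of 24 tests of the 6 genes passed for KO against WT, and all were *Hdc*. Of all genes, 0.387% were called for dorsal striatum, 0.0801% for ventral striatum, 0.0334% for motor cortex and 0.167% for hypothalamus. For heterozygous against WT, 3 of 24 passed, again *Hdc* alone, against shares of 0.0868%, 0.0534%, 0.0134% and 0.0935%. For KO against heterozygous, 1 of 24 passed, against 0.461%, 0.0467%, 0.00668% and 0.234%. Averaged over the 4 regions, *Hdc* alone passed for KO against WT, against 0.3%.

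The 2 breakdown enzymes, the 3 receptors and *Hdc* differed widely in level. Per kb of exon and with genotypes together, *Hrh3* had the highest mean in every region, at 25.6 to 47.6 CPM per kb. *Maob* was at 5.91 to 14.4 and *Hnmt* at 4.73 to 6.78 CPM per kb, with *Maob* the higher of the pair except in the motor cortex. *Hdc* (0.779 to 2.52 CPM per kb), *Hrh1* (0.57 to 2.27) and *Hrh2* (0.522 to 0.936) were low, and their ranges over regions overlapped. These means of *Hdc* include KO and heterozygous libraries. In WT libraries *Hdc* was at 2.67 CPM per kb in the hypothalamus. It was at 0.0704 in WT dorsal striatum, 0.0994 in WT ventral striatum and 0 in WT motor cortex.

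**Figure D3:**
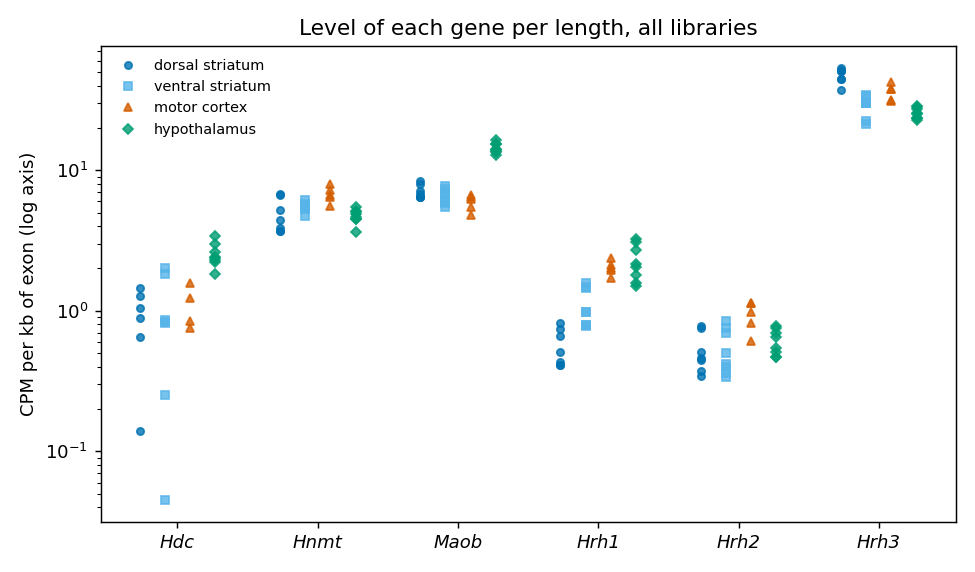
CPM per kb of exon (log axis) of the 6 genes in each library, coloured by region, with genotypes together. The 3 libraries with no *Hdc* count, all WT, cannot be drawn on a log axis; *Hrh3* lies above the other genes, and *Maob* is highest in the hypothalamus.

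*Hnmt* (ENSMUSG00000026986) lies on chromosome 2 from 24002910 to 24049394 on the minus strand. Its means over genotypes were 8.69 ± 2.38 CPM (SD, n = 7) in the dorsal striatum, 9.66 ± 0.691 (SD, n = 8) in the ventral striatum and 8.37 ± 0.995 (SD, n = 8) in the hypothalamus. The motor cortex was highest at 12 ± 1.53 CPM (SD, n = 5). The log2 change of the motor cortex over the dorsal striatum was 0.46 (SE 0.15, edgeR's test, adjusted p = 0.00814), and that of the hypothalamus over the motor cortex was -0.49 (SE 0.14, adjusted p = 0.00199). The latter was -0.26 and did not pass (adjusted p = 0.144) when libraries were scaled by size alone. The ventral striatum did not differ from the motor cortex beyond the spread (adjusted p = 0.0841), and the other 3 pairs did not pass either.

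In the dorsal striatum *Hnmt* was at 9.29 and 11.8 CPM in WT, at 6.52, 6.87 and 12 CPM in heterozygous and at 7.83 and 6.56 CPM in KO libraries. The KO libraries lay below both WT libraries, and the heterozygous libraries spanned them all. The number of other genes with KO below WT in this way was not counted. The log2 change of KO against WT was -0.56 (SE 0.27), which did not pass (edgeR's test, unadjusted p = 0.0381, adjusted p = 0.588). It was -0.45 without KO replicate 8, the library with choroid plexus RNA, and -0.36 without WT replicate 2. In the other 3 regions the change was between -0.12 and 0.04.

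*Maob* (ENSMUSG00000040147) lies on the X chromosome from 16709282 to 16817366 on the minus strand. It was higher in the hypothalamus than anywhere else. WT hypothalamus was at 39.5, 37.5 and 35.7 CPM, heterozygous at 38.2, 42.6 and 46.0 CPM and KO at 42.5 and 39.1 CPM. Every hypothalamic library lay above every library of the other regions, which ran from 13.5 to 23.4 CPM. The log2 change of the hypothalamus was 1.02 (SE 0.09) against the dorsal striatum, 1.14 (SE 0.09) against the ventral striatum and 1.34 (SE 0.11) against the motor cortex. All 3 passed (edgeR's test, adjusted p = 1.03e-28, 3.72e-37 and 8.58e-34). KO against WT gave log2 changes of 0.19 (SE 0.19), 0.04 (SE 0.18), 0.39 (SE 0.26) and 0.12 (SE 0.14) for dorsal striatum, ventral striatum, motor cortex and hypothalamus, and none passed.

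The motor cortex held less *Maob* than the dorsal striatum, at means of 16.5 ± 2.1 CPM (SD, n = 5) and 19.8 ± 2.2 CPM (SD, n = 7). The log2 change was -0.32 (SE 0.12, edgeR's test, adjusted p = 0.0247), and the ventral striatum, at 18.2 ± 2.22 CPM (SD, n = 8), did not differ from either. The call between motor cortex and dorsal striatum was lost without heterozygous replicate 4 (adjusted p = 0.0669) or KO replicate 7 (0.0666) of the dorsal striatum, and without heterozygous replicate 5 (0.0875) or KO replicate 8 (0.0504) of the motor cortex. It was also lost with DESeq2 (0.0577), with no filter on low counts (0.0642) and with libraries scaled by size alone (0.275).

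*Hrh1* (ENSMUSG00000053004) lies on chromosome 6 from 114397936 to 114483296 on the plus strand. It rose in level from the dorsal striatum, at 2.54 ± 0.762 CPM (SD, n = 7), through the ventral striatum, at 4.92 ± 1.53 CPM (SD, n = 8), to the motor cortex, at 9.03 ± 1.07 CPM (SD, n = 5), and the hypothalamus, at 10.1 ± 3.03 CPM (SD, n = 8). Each step passed but the last. The log2 change was 0.92 (SE 0.25) from dorsal to ventral striatum and 0.88 (SE 0.23) from ventral striatum to motor cortex (edgeR's test, adjusted p = 0.00116 and 0.000316). From motor cortex to hypothalamus it was 0.14 (SE 0.21, adjusted p = 0.609).

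The hypothalamic libraries of *Hrh1* were the most scattered, at 12, 9.64 and 13.8 CPM in WT, 7.04, 14.5 and 6.63 CPM in heterozygous and 9.1 and 7.95 CPM in KO. Both KO libraries lay below the WT ones, but within the heterozygous range. The log2 change of KO against WT was -0.47 (SE 0.31, edgeR's test, adjusted p = 0.938). In the dorsal striatum *Hrh1* rested on 7 to 14 counts per library. Its change there was -0.01 with an interval of -1.01 to 0.99, so changes of up to about 2-fold in either direction were not excluded.

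*Hrh2* (ENSMUSG00000034987) lies on chromosome 13 from 54192129 to 54236180 on the plus strand and was low, at 7 to 30 counts per library. Its exons share 145 bp with the antisense gene *Gm16578*, and whether the counting used strand is not given in the sources used here. The motor cortex was highest, at 5.55 ± 1.33 CPM (SD, n = 5). The dorsal striatum was at 3.1 ± 1.03 (SD, n = 7), the ventral striatum at 3.2 ± 1.17 (SD, n = 8) and the hypothalamus at 3.62 ± 0.757 CPM (SD, n = 8), and these did not differ from each other. The motor cortex passed against the dorsal striatum, at a log2 change of 0.73 (SE 0.24, edgeR's test, adjusted p = 0.00825), and against the ventral striatum, at 0.65 (SE 0.23, adjusted p = 0.0147). The latter was lost with DESeq2 (adjusted p = 0.0646) and without KO replicate 7 of the ventral striatum (0.0757). Against the hypothalamus the test just missed, at adjusted p = 0.0518, and it passed in 12 of 36 alternatives, with adjusted p from 0.0218 to 0.324.

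Of the 5 genes other than *Hdc*, *Hrh1* had the largest KO against WT changes in the ventral striatum and hypothalamus. *Hrh2* had the largest in the dorsal striatum and motor cortex. In the dorsal striatum it was at 3.0 and 2.04 CPM in WT, 2.65, 2.21 and 2.72 CPM in heterozygous and 4.6 and 4.46 CPM in KO libraries. In the motor cortex it was at 3.61 CPM in WT, 5.79 and 4.89 CPM in heterozygous and 6.72 and 6.76 CPM in KO libraries. In both regions the KO libraries lay above all others, but the groups were small and how many other genes had such an order was not counted. The ventral striatum, at 2.02, 2.96 and 4.11 CPM in WT, 2.47, 4.45 and 2.16 CPM in heterozygous and 2.36 and 5.06 CPM in KO, overlapped, as did the hypothalamus.

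None of these *Hrh2* differences passed. The log2 change of KO against WT was 0.88 (SE 0.43) in the dorsal striatum (edgeR's test, unadjusted p = 0.0381, adjusted p = 0.588) and 0.90 (SE 0.46) in the motor cortex (unadjusted p = 0.0417, adjusted p = 1). In the dorsal striatum it was 0.90 without KO replicate 8, 0.85 without KO replicate 7 and 0.59 without WT replicate 2. It was 0.26 (SE 0.39) in the ventral striatum and -0.21 (SE 0.34) in the hypothalamus. Averaged over the 4 regions it was 0.46 (SE 0.20, unadjusted p = 0.0231, adjusted p = 0.451). Without the hypothalamus, an average chosen after the values were seen, it was 0.68 (SE 0.25, unadjusted p = 0.00504, adjusted p = 0.365), where 0.174% of all genes were called. Both averages count libraries of different regions as separate, though they may share mice.

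*Hrh3* (ENSMUSG00000039059) lies on chromosome 2 from 180099465 to 180104488 on the minus strand and shares 349 bp of exon with the antisense gene *Gm17180*. It ran opposite to *Hrh1* in the striatum, highest in the dorsal part. WT dorsal striatum was at 161 and 169 CPM, heterozygous at 160, 139 and 139 CPM and KO at 163 and 117 CPM. All but the last lay above every library of the other regions, which ran from 67.3 to 133 CPM. Region means were 150 ± 18.6 CPM (SD, n = 7) in the dorsal striatum, 113 ± 14.5 (SD, n = 5) in the motor cortex, 91.6 ± 14.9 (SD, n = 8) in the ventral striatum and 80.5 ± 7.27 CPM (SD, n = 8) in the hypothalamus.

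Each step of that order passed but the last for *Hrh3*. The motor cortex was lower than the dorsal striatum by a log2 change of -0.40 (SE 0.11, edgeR's test, adjusted p = 0.000919) and higher than the ventral striatum by 0.33 (SE 0.11, adjusted p = 0.00551). The hypothalamus differed from the ventral striatum by -0.17 (SE 0.09, adjusted p = 0.124). The ventral striatum was -0.73 (SE 0.10, adjusted p = 1.97e-13) from the dorsal. Leaving out KO replicate 8 or WT replicate 3 of the ventral striatum brought the hypothalamus against ventral striatum to adjusted p = 0.021 and 0.0275. These were the ventral libraries with the lowest sums of striatal genes. KO against WT gave log2 changes of -0.23 (SE 0.18), -0.16 (SE 0.17), 0.08 (SE 0.22) and -0.11 (SE 0.17) in the dorsal striatum, ventral striatum, motor cortex and hypothalamus, none of which passed. In the dorsal striatum KO replicate 8, with choroid plexus RNA, was the low library, and without it the change was -0.02.

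**Figure D4:**
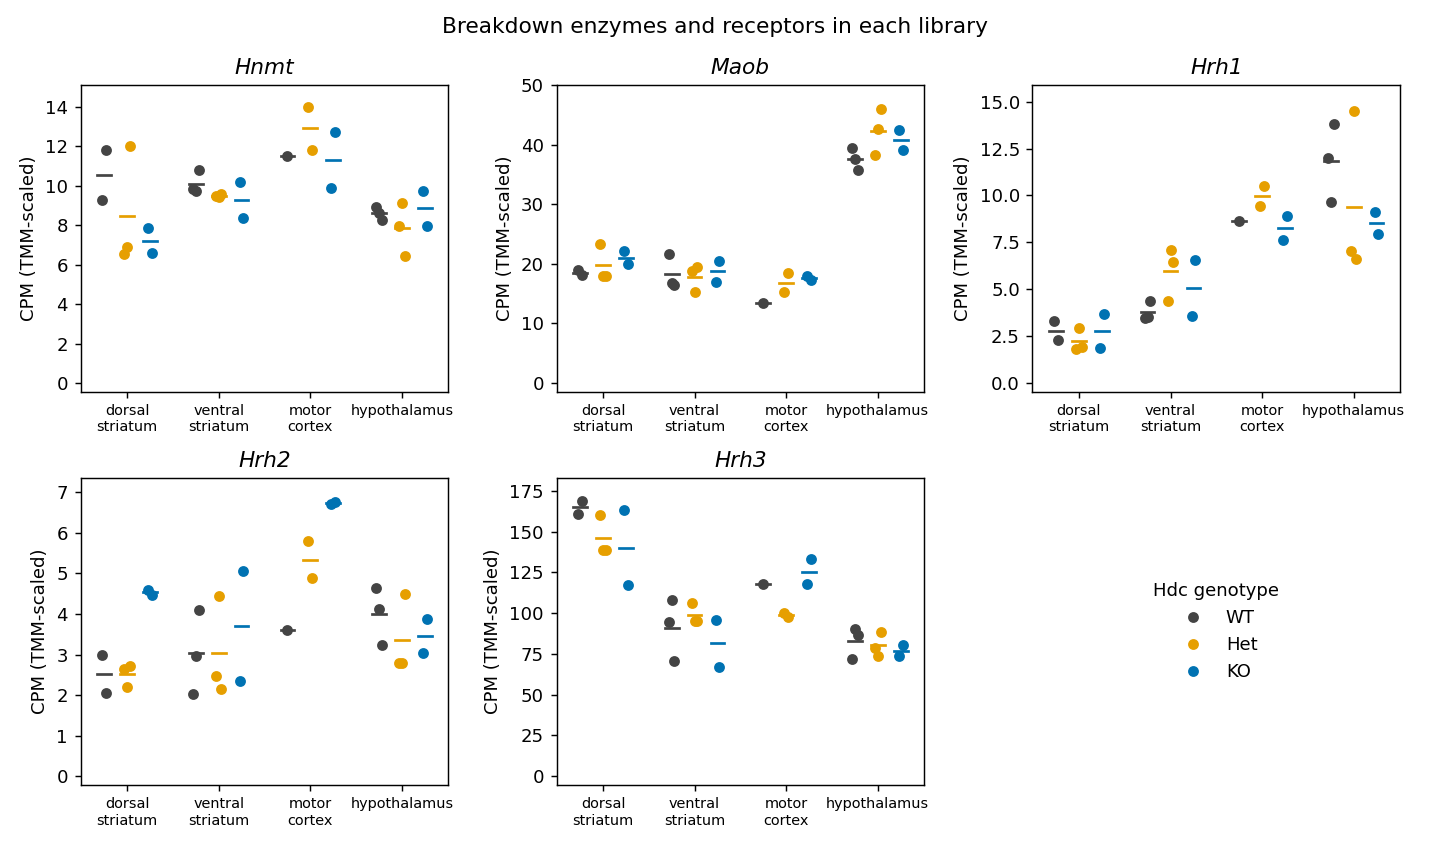
CPM of *Hnmt*, *Maob*, *Hrh1*, *Hrh2* and *Hrh3* in each library, by region and genotype; points are libraries and bars are group means. *Maob* is at 35.7 to 46.0 CPM in the hypothalamus and at most 23.4 CPM elsewhere, *Hrh1* climbs from the dorsal striatum to the hypothalamus, and *Hrh3* is highest in the dorsal striatum.

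Of the 5 genes other than *Hdc*, none was called in 20 tests of KO against WT with edgeR's likelihood ratio test, and 3 of the 20 had an unadjusted p under 0.05. The quasi-likelihood test called none, with 2 under 0.05, and DESeq2 called none, with 0. For heterozygous against WT none of 20 was called by any of the 3 tools, with 0 under 0.05, and for KO against heterozygous none was called, with 1, 1 and 0. By the likelihood ratio test, 649 to 1190 of the 14979 genes in a region were under 0.05 unadjusted for KO against WT. The numbers were 556 to 1191 for heterozygous against WT and 515 to 1089 for KO against heterozygous. The intervals of the fit give the log2 changes that these libraries did not exclude. For *Hrh3* and *Maob*, the intervals of KO against WT outside the motor cortex all lay between -0.58 and 0.57. For *Hrh1* and *Hrh2*, the intervals over all 4 regions reached from -1.07 to 1.80.

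**Figure D5:**
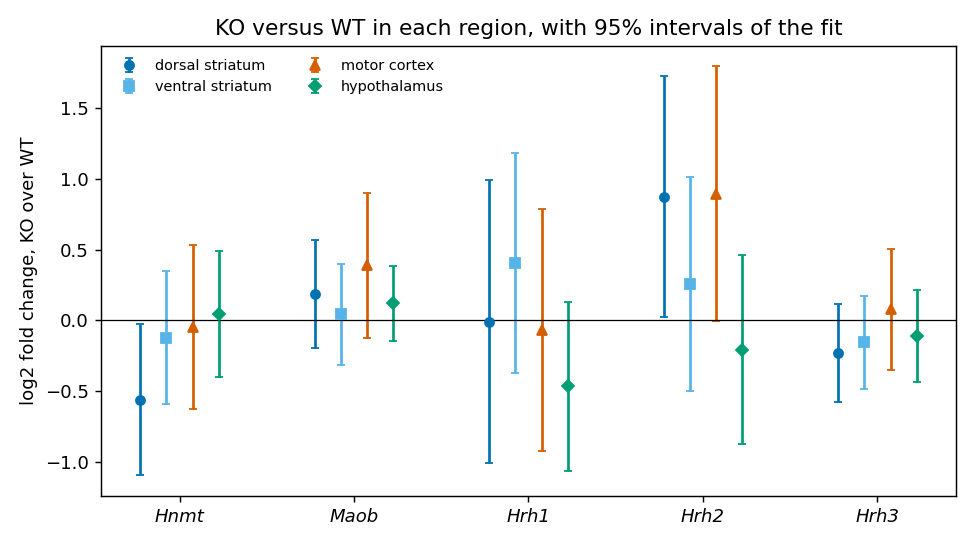
Log2 fold change of KO over WT for the 5 genes other than *Hdc* in each region, with the 95% interval of the fit. Most intervals take in 0; that of *Hnmt* in the dorsal striatum (-1.10 to -0.03) and that of *Hrh2* there (0.02 to 1.73) do not, and neither passed after adjustment over all genes.

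Among pairs of regions, 22 of 36 tests of the 6 genes passed, 4 of them for *Hdc*: the hypothalamus against each other region, and the motor cortex below the ventral striatum (adjusted p = 0.0451), where the WT motor cortex library had no count. The share of all genes called was 29% for ventral against dorsal striatum, 43.4% for motor cortex against dorsal striatum and 56.1% for hypothalamus against dorsal striatum. It was 43.7% for motor cortex against ventral striatum, 43.6% for hypothalamus against ventral striatum and 48.2% for hypothalamus against motor cortex. In WT libraries alone, 4 of the 6 passed for the hypothalamus against the mean of the other regions, where 38.2% of all genes did. *Hdc*, *Maob* (log2 change 1.18, SE 0.13) and *Hrh1* (1.39, SE 0.27) were higher and *Hrh3* was lower (-0.55, SE 0.13; edgeR's test, adjusted p = 0.00022). With libraries scaled by size alone, where the median of all genes moved by 0.448, *Hrh3* was at -0.15 and did not pass (adjusted p = 0.361).

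The other genes of the pathway were read from a list of 9. *Aoc1* (diamine oxidase), *Hal* (histidine ammonia-lyase), *Slc22a2* (an organic cation transporter) and *Hrh4* (the H4 receptor) were under the filter, and the other 5 were tested. For KO against WT none of 20 tests passed (1 had an unadjusted p under 0.05 with each of the 3 tools), and the median change was between -0.05 and 0.13, beside -0.00 to 0.01 over all genes. Of all genes, edgeR's likelihood ratio test called 0.0334% to 0.387% in a region. The hypothalamus was higher for all 5 than the ventral striatum or the motor cortex. *Slc18a2*, which loads histamine and other amines into vesicles, was at 52.7 ± 13.6 CPM (SD, n = 8) there and at 7.6 to 9.31 CPM on average elsewhere. *Maoa*, the sister enzyme of *Maob*, was at 27.9 ± 2.32 CPM (SD, n = 8) there and at 14.5 to 17.5 CPM elsewhere.

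*Slc22a3*, a transporter that takes up histamine, was lower in the hypothalamus than in the dorsal striatum. It was at 10.4 ± 1.81 CPM (SD, n = 7) in the dorsal striatum and at 2.5 ± 0.51 CPM (SD, n = 8) in the hypothalamus, a log2 change of -2.02 (SE 0.19, edgeR's test, adjusted p = 7.28e-29). *Slc29a4*, another uptake transporter, was at 16.8 CPM in the KO dorsal striatum library with choroid plexus RNA, replicate 8, and at 2.76 CPM in KO replicate 7. WT libraries were at 3.9 and 2.04 CPM and heterozygous libraries at 3.06, 2.7 and 8.44 CPM. Its log2 change of 1.73 (SE 0.56) did not pass (adjusted p = 0.164), and the part of that library in it was not tested.

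Genes whose levels followed each member most closely over the 28 libraries are given as a description. These correlations are of log2 CPM, the libraries share regions, and no p is attached. *Maob* was closest to *Hcrt* (Pearson r = 0.948), *Foxb1* (0.944) and *Pmch* (0.943), of which *Hcrt* and *Pmch* encode hypothalamic peptides. *Hrh3* was closest to *Atxn1* (0.94), *Rgs7bp* (0.929) and *Spry2* (0.924), and *Hrh1* to *Dscam* (0.921), *Tmem145* (0.914) and *Camk2n2* (0.911). For the rest no gene came near. The closest were *Pdap1* for *Hnmt* (0.796), *Mfsd4a* for *Hrh2* (0.761) and *Vcp* for *Hdc* (0.758). Between members, the highest were *Hdc* with *Maob* (0.618) and *Hrh1* with *Hrh3* (-0.685).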

How the data were processed

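RNA was amplified with a kit (Ovation V2) from dissected tissue, and single-end reads were trimmed with Trimmomatic 0.32, cleared of ribosomal reads with Bowtie2 2.2.3, aligned to GRCm38 with STAR 2.3.1z8 and counted in union mode with HTSeq 0.6.1p1. The deposited values are the authors' raw read counts, 1 file per library, not normalized. Each file had 6 further rows that name no gene, left out here, and 44.8% to 54.2% of all tallied reads fell on genes. Symbols come from GENCODE M21 and named 28842 of 29878 genes.

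Genes above 1 CPM in at least 2 libraries entered edgeR 4.0.16 under R 4.3.3 (glmFit and glmLRT, as in the study's methods), with TMM scaling and 12 group means in 1 model. Calls had a Benjamini-Hochberg adjusted p under 0.05 over all 14979 genes. Standard errors come from the model's information. CPM uses TMM-scaled totals of the tested genes. A fold against a group at 0 is a lower bound against 3 counts. Correlations used log2 CPM with a prior count of 2. The test was checked on simulated counts.

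Members and lists were chosen with earlier results of these data known. The named genes are the 6 members, the list genes needed, the nearest tested gene on each side of *Hdc*, and the 3 genes most correlated with each member, of which the text names at least 1. Alternatives were edgeR's quasi-likelihood test, DESeq2 1.42.0, other scalings and filters, limma 3.58.1 with and without a replicate block, single regions and leaving out each library. Of 21 pairs of libraries of a group, none agreed within sampling noise (chi-square per degree of freedom 1.86 to 14.6). One gene of the marker lists, and sums over its list, are not reported here.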

Additional observations from a re-analysis of the deposited data

Results flagged for a closer look

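The change of *Hdc* with genotype differed between regions. Hypothalamus minus ventral striatum, the KO against WT change differed by -4.62 on the log2 scale and the heterozygous against WT change by -3.02, each tested as a difference in the same model (edgeR's likelihood ratio test, adjusted p = 4.18e-18 and 1.93e-05). No group had the 4 or more libraries that a search for single stray libraries needs.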

How the results depend on the processing

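Over 80 results of single genes and 2914 alternative values, 2814 kept their direction and their side of the threshold. *Hdc* was called for KO against WT in the dorsal and ventral striatum in all 37 alternatives each, with adjusted p up to 0.0361 and 0.00101. With limma the 3 calls of heterozygous against WT fell to 0, both without a block, which was chosen after seeing the data (adjusted p = 0.223, 0.117 and 1 for *Hdc* in the dorsal striatum, ventral striatum and motor cortex), and with the number in the library name as a random replicate block (0.217, 0.112 and 1), whose estimated correlation was -0.0151. The single call of KO against heterozygous fell to 0 with limma in both forms, with edgeR's quasi-likelihood test and with DESeq2, and was 0 to 1 when a library was left out. The replicate block as a fixed term gave 21 calls among pairs of regions in place of 22 (19 to 23 over all alternatives) and lost *Maob* between motor cortex and dorsal striatum (adjusted p = 0.0588). It could not be fitted within a region. Numbers were not taken to pair libraries: the 34 pairs with the same number correlated at -0.08 to 0.086 after group means were removed.

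Signs turned for values that had not passed, with 1 that then passed. With libraries scaled by size alone, *Hnmt* came to 0.331 (adjusted p = 0.0331) for hypothalamus against dorsal striatum, 0.070 against the other regions in WT and 0.021 against ventral striatum, and for KO against WT to -0.039 in the hypothalamus and 0.036 in the motor cortex. *Hrh1* for KO against WT came to 0.276 in the dorsal striatum, 0.010 in the motor cortex and 0.047 on average, and *Hrh3* to 0.049 in the dorsal striatum. *Hrh3* for hypothalamus against ventral striatum came to 0.044, *Maob* for ventral against dorsal striatum to 0.036 and *Hdc* for heterozygous against WT in the hypothalamus to -0.092. The last was -0.010 with limma in both forms and -0.003 within its region, and *Hrh3* for the difference of the KO change came to 0.009 with the random replicate block and 0.006 without. This scaling moved the median of all genes by 0.276 for KO against WT in the dorsal striatum and raised the calls there from 58 to 499; the cause was not tested.

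Leaving out a library turned the sign within these ranges for KO against WT: *Hnmt* -0.11 to 0.184 in the hypothalamus, -0.217 to 0.139 in the motor cortex and -0.275 to 0.008 in the ventral striatum; *Hrh1* -0.173 to 0.073 on average, -0.56 to 0.425 in the dorsal striatum, -0.174 to 0.044 in the motor cortex and -0.095 to 0.792 in the ventral striatum. In the ventral striatum *Hrh2* ran from -0.372 to 0.717, *Hrh3* from -0.436 to 0.075 and *Maob* from -0.095 to 0.176. The difference of the KO change ran from -0.096 to 0.089 for *Hrh3*, and *Hdc* for heterozygous against WT in the hypothalamus from -0.201 to 0.114. Between regions, *Hnmt* for hypothalamus against dorsal striatum ran from -0.09 to 0.068, *Hrh1* for hypothalamus against motor cortex from -0.015 to 0.203 and *Hrh2* for ventral against dorsal striatum from -0.133 to 0.23. Depth limits *Hdc* in WT libraries outside the hypothalamus (0 to 6 counts), *Hrh1* and *Hrh2* (7 to 27 counts in the striatum), and groups of 1 to 3 libraries limit all comparisons.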
